A study of Homo sapiens with 3 samples.

Results

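Growing IMR-90 ER:Ras cells were described from 1 array, 1 of the 3 arrays of the series, taken by its label of no treatment. IMR-90 is a cell line of fibroblasts from human lung, and its derivative carries a Ras protein fused to an estrogen receptor domain so that a drug can activate it. All 3 cultures carry this fusion, so the growing cells are cells with ER:Ras that were given no 4-hydroxytamoxifen, which is that drug. The medium was Dulbecco's modified Eagle's medium with 10% heat-inactivated fetal bovine serum. The series also holds a culture in oncogene-induced senescence, kept 6 days in 100 nM 4-hydroxytamoxifen, and a culture in replicative senescence after 10 weeks of passage. Those arrays are used here to place the floor described next and in the alternatives that need all 3 arrays. Whether the line is 1 clone, which promoter drives the fusion and the passage number of the growing culture are not given in the sources read for it.

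Fibroblasts are the cells that build connective tissue. They secrete fibrillar collagens, fibronectin and proteoglycans, hold on to that matrix through integrins, and pull on it with stress fibres of nonmuscle actin and myosin. Fibroblasts of different organs keep a record of their position in the HOX and TBX transcription factors they use, and lung mesenchyme is marked by FOXF1 and by TBX2 to TBX5.

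A gene was given the signal of its brightest probe set that names it alone, in linear MAS5 units, and the 19775 genes with such a probe set were put in order of that signal. The floor of 45.5 is the median of all probe sets on the 3 arrays. It splits probe sets at about their middle by construction (50.3% of 54613 were above it on the growing array), so being above it is no call of presence. At the level of genes 12375 of 19775, or 62.6%, were above it, and each count below can be read against that percentage. Because the brightest of several probe sets was taken, the share depended on their number: 45.4% of the 9252 genes with 1 probe set were above the floor, and 88.0% of the 2728 genes with 4 or more. The genes next to the floor were HS3ST5 and PCDHGA3 at 45.6 and SPATA31F2P at 45.7 just above, and ATP2B3, CAPN3 and CHST4 at 45.5 just outside.

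What the floor admits can be seen in genes of tissues far from a fibroblast. Lists of olfactory receptors, bitter taste receptors, hair keratin-associated proteins, eye proteins, gamete proteins and digestive enzymes held 224 genes in all, of which 30, or 13.4%, were above the floor. Their median signal was 15.4 and their 95th percentile 76.6. That second mark, 76.6, is used below beside the floor, and 11033 of all genes, or 55.8%, were above it. Above the floor were 12 of 102 olfactory receptor genes, 2 of 18 taste receptors, 6 of 33 keratin-associated proteins, 4 of 26 eye proteins, 4 of 26 gamete proteins and 2 of 19 digestive enzymes. Of the 5 receptor genes above 76.6 in the olfactory list, OR7E37P at 765, OR7E104P at 248, OR7E12P at 164 and OR7E156P at 162 belong to the OR7E group of olfactory pseudogenes, and OR1I1 was at 88.3. One gene stood far outside the range of these lists: KRTAP1-5, a keratin-associated protein of hair, had a signal of 2932 and rank 2328 from its only probe set. Its neighbour in the family, KRTAP1-3, was at 229 from 1 of its 2 probe sets.

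A low signal was not evidence of absence either. Every growing cell needs cytosolic ribosomal proteins. Of 58 genes of these proteins and their variants, 52 ranked among the 500 highest, while RPL36A was under the floor at 22.7. RPLP2 at 117 and RPL27A at 514 were above both marks but low for the list. The translation factor EIF4A2 was at 14.4 from its only probe set. Such values describe those probe sets, and a gene named below as under the floor is a gene whose usable probe sets were dim.

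The only error that 1 array allows is the disagreement between probe sets of the same gene. Where the brightest and the next brightest were both above the floor, in 6162 genes, the brighter exceeded the other by a median of 2.15-fold, by 1.36-fold at the lower quartile, by 4.75-fold at the upper quartile and by 13.1-fold at the 90th percentile. Disagreement was larger still for 131 of the 420 genes that had several probe sets and 1 at 10000 or more, since another of theirs was at or below the floor. A further probe set above the floor existed for 75.4% of the 8170 genes with several probe sets whose brightest was above it. Probe sets also differ in how well they bind and in how far from the end of the transcript they lie. The order is therefore an order of signal, and neighbours in it do not differ beyond this spread.

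Of the first 100 genes, 33 encode ribosomal proteins, 15 belong to the listed cytoskeletal and membrane-associated families and 8 to the matrix lists. COL1A1, the alpha 1 chain of type I collagen, had the highest signal, 33451, and its next probe sets fell to 12326 and at the lowest to 38.7. TMSB10 and TMSB4X, the thymosins that bind monomeric actin, followed at 32871 and 32677, each from a single probe set. The ribosomal protein RPS23 was at 32104 and CAV1, the coat protein of caveolae, at 31793. TUBA1B, an alpha-tubulin, was at 31185 and EEF1A1, the factor that brings tRNA to the ribosome, at 30881.

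The curve was flat at the top. The signal at rank 10 was 30298, at rank 30 it was 27174 and at rank 100 it was 21666, which is 1.54-fold below the first gene and less than the median spread between probe sets of 1 gene. At rank 500 it was 10969 and at rank 1000 it was 6629. No more than 10 genes were above 30000 units, and 572 were above 10000. Whether the brightest probe sets were near the limit of the scanner was not tested.

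Ribosomal proteins held 13 of the first 30 places. RPS23 at 32104 led them, followed by RPL7 at 31086, RPL27 at 30484, RPL37A at 30298, RPS10 at 29827, RPS16 at 29530, RPS19 at 29385 and RPLP1 at 28812. The next were RPL37 at 27674, RPS6 at 27624, RPL9 at 27516, RPL39 at 27286 and RPL31 at 27267. Their probe sets did not all read alike, since a second probe set of RPS23 was at 248, of RPL37A at 621 and of RPLP1 at 2.9. The list had a median of 22533, and 56 of 58 were above the floor. The low members were RPL36A and RPL3L, the second a muscle paralog of RPL3 at 24.6.

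The other genes among the first 30 had various roles. FTL, the ferritin light chain, was at 28235 and MT2A, a metallothionein, at 27926. B2M, the light chain of HLA class I, was at 29659, UBB, a ubiquitin precursor, at 29202 and TPT1, a translationally controlled protein, at 29357. RTN4, a reticulon that shapes the endoplasmic reticulum, was at 29726 with a second probe set at 28596, and EIF1, an initiation factor, at 27174. FN1, fibronectin, was at 29571, COL1A2, the other chain of type I collagen, at 27180 and the tubulin TUBA1A at 28412. HUWE1, a ubiquitin ligase, was also there at 27462, but its next probe set was at 1289 and the median of its 5 probe sets at 135.

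Of the first 30 genes, 27 had been read by a probe set whose name ends in s_at or x_at, a kind that can bind several transcripts. The share was 74.0% of the first 100 and 27.7% of all genes. FTH1P5, a pseudogene of the ferritin heavy chain, had rank 33 at 27070 from an x_at probe set, and that of the metallothionein MT1HL1, rank 88 at 22552, was x_at too. Reads of near-identical relatives cannot be told apart by such sets. Leaving them out drops the genes with no other kind, and 31 of the first 100 genes were still among the first 100. COX2, rank 40 at 26203, is the mitochondrially encoded cytochrome oxidase subunit in the RefSeq naming used here, and not the cyclooxygenase.

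**Figure D1:**
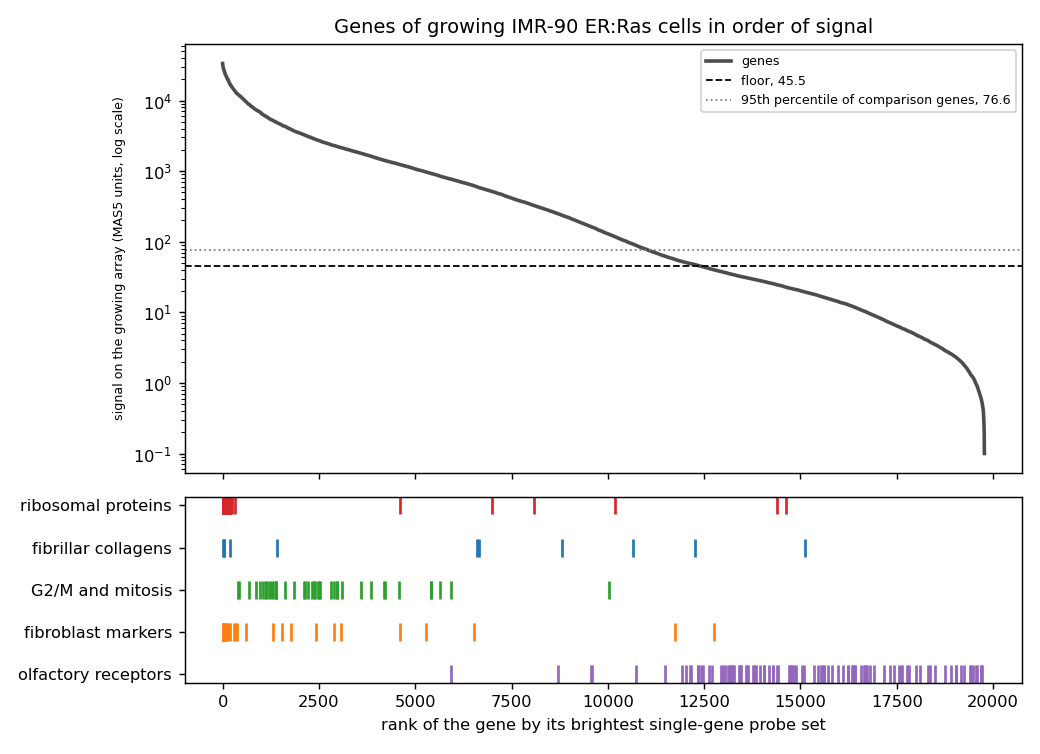
Upper panel: signal of each gene on the growing array (log axis, MAS5 units) against its rank, with the floor of 45.5 dashed and the mark of 76.6 dotted. Lower panel: each tick is 1 gene of the named list at its rank. Ribosomal proteins crowd the left edge with 33 of the first 100 places, while 12 of 102 olfactory receptors lie left of the point where the curve meets the floor.

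Fibroblast and mesenchymal markers were mostly above the floor, in a list chosen with earlier results of these data known. Their share, 96%, was close to the 94.4% of the smooth muscle list given next, so it does not set fibroblasts apart from that lineage. Of 25 fibroblast and mesenchymal markers, 24 were above the floor and 23 above 76.6, with a median signal of 12433. After COL1A1, CAV1, FN1 and COL1A2 came CD44, the hyaluronan receptor, at 26734, COL3A1 at 25414 and the intermediate filament protein VIM at 22663. PDGFRA, a receptor for platelet-derived growth factor, was at 9535, THY1, a surface glycoprotein of fibroblasts, at 5200 and FAP, a surface protease, at 3873. The regulators SNAI2 at 4449, TWIST1 at 2784 and PRRX1 at 2305 were lower in the order. S100A4, often used as a fibroblast marker, was at 1237 and PDGFRB at 970. PDPN, a membrane glycoprotein, was near the floor at 56.0, and MFAP5, a microfibril protein, was under it at 40.3.

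Smooth muscle markers were above the floor in 17 of 18 cases. CALD1, MYLK, ACTA2 and TAGLN, which are shared by smooth muscle and by contractile fibroblasts, were at 23657, 18551, 15226 and 14190. ACTG2, a smooth muscle actin, was at 18786. ACTA2 and ACTG2 each had 1 bright probe set, and the next was at 26.5 for ACTA2 and at 3.9 for ACTG2. Other list members were lower in the order. CNN1, a calponin, was at 2442, MYOCD, a coactivator of the muscle program, at 514, and MYH11, the smooth muscle myosin heavy chain, at 59.0. DES, the muscle intermediate filament desmin, was at 51.1 and ABCC9 was under the floor at 44.4. In a bulk sample, a few cells with much RNA and many cells with little cannot be told apart.

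Lung mesenchyme transcription factors were above the floor in 16 of 20 cases, all 16 also above 76.6. That share, 80%, was close to the 82.1% of the mesenchymal and signal-driven factors given last, so it is not particular to lung. ZEB1, a repressor of epithelial genes, was at 11225, FOXF1, the forkhead factor of lung mesenchyme, at 8928 and FOXP1 at 6111. Of the T-box genes TBX3 was at 3606, TBX2 at 2427 and TBX5 at 1522, while TBX4 was under the floor at 5.1 from its only probe set. TCF21, a factor of mesenchyme, was at 667. The Hedgehog effectors GLI3 and GLI2 were at 640 and 444, and GLI1, whose level follows Hedgehog signaling, was at 6.1. The list members HAND2 at 2.1 and NKX2-3 at 4.6 were also under the floor.

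Markers of other cell types were mostly under the floor, at shares below the 62.6% of all genes. Lung epithelial markers were above it in 5 of 16 cases and above 76.6 in 2, SFTPB at 142 and SFTPC at 80.7, which are surfactant protein genes. NKX2-1, the regulator of lung epithelium, was at 9.8 and SCGB1A1, the club cell protein, at 9.2. General epithelial markers were above the floor in 6 of 16 cases, led by MARVELD2 at 217, EPCAM at 157 and OCLN at 129. CDH1, the epithelial cadherin, was at 18.1, KRT5 at 28.4, KRT14 at 4.4 and ESRP1, an epithelial splicing factor, at 1.8. SFTPB, MARVELD2, EPCAM and OCLN were thus above 76.6, as were 12 of the 224 comparison genes. Of those, KRTAP1-3 (229) had a higher signal than each of them. MUC5AC at 61.2, ABCA3 at 55.3 and OVOL1 at 51.4 were above the floor and under 76.6.

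Endothelial markers were above the floor in 5 of 16 cases. The highest was TEK, the angiopoietin receptor, at 1251 with its other probe set at 25.3, then FLT1, a receptor for vascular endothelial growth factor, at 242 and ROBO4 at 105. The defining genes CDH5 at 1.5, KDR at 6.9 and TIE1 at 7.4 were under the floor, and VWF was at 59.7 and PECAM1 at 49.0. Blood cell markers were above it in 7 of 21 cases, with KIT, the stem cell factor receptor, at 398, HBB, a hemoglobin chain, at 267, CD79A at 139 and CD4 at 122. PTPRC, the common leukocyte antigen CD45, was at 31.1, CD3D at 2.5 and SPI1, a regulator of myeloid cells, at 1.6.

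Neuronal and glial markers were above the floor in 7 of 19 cases. TUBB3, a beta-tubulin used as a neuronal marker, was at 13361 with a second probe set at 11528, and SYT1, a synaptic vesicle protein, at 725 with a second at 425. MAP2 followed at 145 and NEFH at 127. The glial MBP, at 87.0, was above 76.6, and SNAP25 at 57.8 and SLC17A7 at 47.5 were above the floor only. The other list members were under the floor, with RBFOX3 at 36.0, SYP at 15.6, DCX at 7.4 and the glial GFAP at 6.5. TUBB3 was read by an x_at probe set and is also given with the tubulins.

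Skeletal and cardiac muscle markers reached the floor in 3 of 23 cases, TNNT3 at 71.4, the titin gene and DES, and none was above 76.6. The myogenic regulators MYOD1 at 10.5, MYOG at 5.9, MYF5 at 3.6 and MYF6 at 2.8 were under it. Of liver markers 2 of 15 were above the floor, CYP3A4 at 141 and TTR at 55.4, and ALB, albumin, was at 30.4. None of 12 germ cell and pluripotency markers was above it, the highest being SOX2 at 28.4. NANOG was at 1.8 and TERT, the catalytic subunit of telomerase, at 5.6.

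Lists of neighbouring mesenchymal lineages held members on both sides of the floor. Cartilage and bone markers were above it in 8 of 15 cases. RUNX2, the bone regulator, was at 1964 from 1 of 6 probe sets, and SOX9, the cartilage regulator, was at 1687. SOX6 was at 830 and MATN3, a matrix protein, at 700. COL2A1, the collagen of cartilage, was at 19.4, SP7 at 4.0 and IBSP, bone sialoprotein, at 8.1. Adipocyte markers were above it in 5 of 13 cases. PPARG, the fat cell regulator, was at 779, AGPAT2 at 394 and CIDEC at 124, and FABP4 was at 64.6, but ADIPOQ was at 18.1, PLIN1 at 1.9 and CEBPA at 11. In the melanocyte list 3 of 9 were above it, MITF at 1507, TFAP2A at 88.0 and TYRP1 at 82.1, while TYR was at 27.7, PMEL at 4.5 and MLANA at 8.9.

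**Figure D2:**
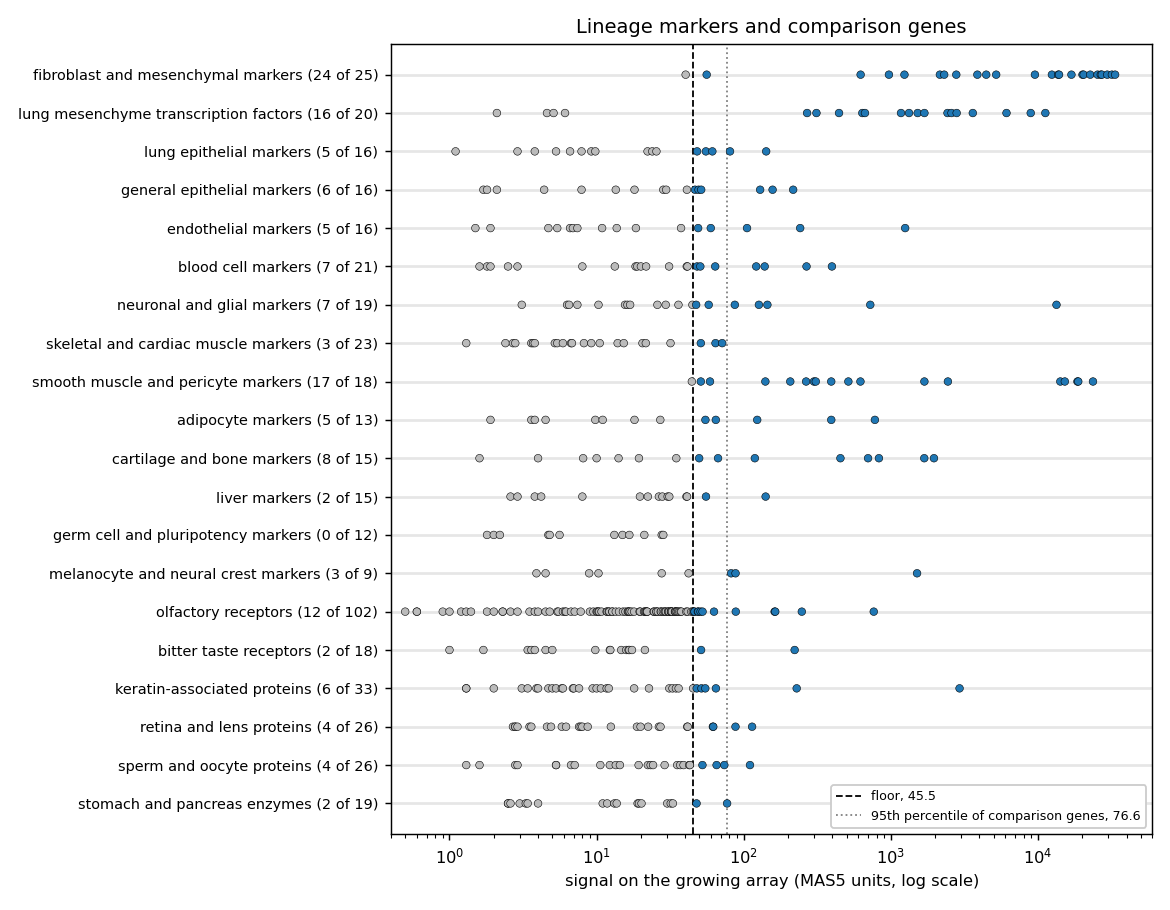
Each point is 1 gene on a log axis of signal in MAS5 units, blue above the floor of 45.5 and grey at or below it, with lists of lineage markers above and comparison genes below. The number above the floor and the number read stand after each list name, such as 24 of 25 fibroblast markers against 5 of 16 lung epithelial markers.

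All 40 G2/M and mitosis genes and all 37 S phase and replication genes that could be read were above both marks. TYMS, which makes thymidylate, was at 11694, the ribonucleotide reductase subunits RRM2 and RRM1 at 11396 and 10965, and PCNA, the sliding clamp of DNA polymerase, at 10321. Among mitosis genes ANLN, a scaffold of the contractile ring, was at 12060, PTTG1, securin, at 11699, CCNB1, cyclin B1, at 8749 and TOP2A, a DNA topoisomerase, at 7406. The lowest members were E2F1 at 108 in the first list and PLK1 at 128 in the second. MKI67, the usual proliferation marker, was at 930 with its 4 probe sets between 344 and that value. Whether the 2 lists would also lie above the floor in cells that do not grow was not tested.

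Cyclins were ordered by signal as CCND1 at 12616, CCNB1, CCNB2 at 4952, CCNA2 at 3697, CCND3 at 1841, CCNE2 at 1216, CCND2 at 414 and CCNE1 at 410. Most neighbours in this order lie closer than the median spread between probe sets of 1 gene, so it is not resolved. CCNA1, the cyclin A of the testis, was under the floor at 26.5 and CCNB3, a cyclin of meiosis, near it at 56.7. All 7 readable CDK inhibitors were above the floor. CDKN1A, which encodes p21, was at 6064, CDKN3 at 3952 and CDKN1B, which encodes p27, at 3679. CDKN2B, which encodes p15, was at 743, CDKN2A, the locus of p16 and ARF, at 485, CDKN1C at 370 and CDKN2D at 213.

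In the list of genes linked with senescence and p53, all 12 that could be read were above both marks. HMGB2, a chromatin protein, was at 15068 with its other probe set at 28.7. IGFBP3, an IGF-binding protein, was at 9990, GADD45A, a damage-response gene, at 6404 and MDM2, the ubiquitin ligase of p53, at 3556. LMNB1, which encodes lamin B1, was at 4163. IGFBP3 is secreted, and the secreted CXCL8, GDF15, MMP3 and IL6 had lower signals, at 1780, 1643, 1417 and 753.

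HRAS had a signal of 7696 and rank 815 from its only usable probe set. ESR1, the estrogen receptor, was at 593 with 5 of its 9 probe sets above the floor and the lowest at 2.2, and ESR2 was at 33.5. Whether these probe sets read the ER:Ras transgene, the cell's own genes or both was not tested. The related GTPases RRAS2 at 4325, RRAS at 1789 and MRAS at 963 and the kinases MAP2K1 at 2141, MAP2K2 at 1158, MAPK3 at 434 and ARAF at 433 were all above the floor. In this list 9 of 10 readable genes were.

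Promoter windows of the genes are shown because their letters differ between classes of signal, a property that the order did not use. RefSeq gives a window of 250 bases before to 50 after the start for 15381 of the 19775 genes (GRCh38.p14), and each is printed 5′ to 3′ on the strand of the gene. In the first, second and last window capitals mark the TATA form TATAAA, the CCAAT box and the GC box, spelled GGGCGG, on either strand. In the window of TOP2A they mark TTTGAA and the CCAAT box. In that of TYMS they mark the E2F form TTTGGCGC or the form TTTCCCGC, and the CCAAT box. TMSB10 (chr2:84905406-84905705, plus strand) has the highest signal of the genes with a window. CAV1 (chr7:116524759-116525058, plus) was chosen by hand from the fibroblast and mesenchymal list. TOP2A (chr17:40417847-40418146, minus) is the highest mitosis gene with both TTTGAA and CCAAT. TYMS (chr18:657403-657702, plus) is the highest S phase gene with an E2F motif. ALB (chr4:73404037-73404336, plus), also chosen by hand, stands for a tissue gene under the floor.
TMSB10: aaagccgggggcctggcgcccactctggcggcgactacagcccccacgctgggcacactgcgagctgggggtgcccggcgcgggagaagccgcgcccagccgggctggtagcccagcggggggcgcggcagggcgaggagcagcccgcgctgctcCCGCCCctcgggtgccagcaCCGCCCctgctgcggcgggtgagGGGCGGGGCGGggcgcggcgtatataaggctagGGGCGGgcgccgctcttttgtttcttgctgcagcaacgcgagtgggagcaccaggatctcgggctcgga
CAV1: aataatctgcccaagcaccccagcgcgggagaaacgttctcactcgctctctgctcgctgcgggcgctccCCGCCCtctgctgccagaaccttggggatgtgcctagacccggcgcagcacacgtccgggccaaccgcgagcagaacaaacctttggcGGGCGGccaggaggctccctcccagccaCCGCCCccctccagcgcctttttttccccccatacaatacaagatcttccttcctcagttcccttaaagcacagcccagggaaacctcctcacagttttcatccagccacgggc
TOP2A: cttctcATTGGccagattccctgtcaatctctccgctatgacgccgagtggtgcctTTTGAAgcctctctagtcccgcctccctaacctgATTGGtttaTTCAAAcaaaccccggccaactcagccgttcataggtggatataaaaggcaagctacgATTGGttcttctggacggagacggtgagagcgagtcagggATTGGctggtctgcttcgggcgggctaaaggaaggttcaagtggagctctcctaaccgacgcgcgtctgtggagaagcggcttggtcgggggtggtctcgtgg
TYMS: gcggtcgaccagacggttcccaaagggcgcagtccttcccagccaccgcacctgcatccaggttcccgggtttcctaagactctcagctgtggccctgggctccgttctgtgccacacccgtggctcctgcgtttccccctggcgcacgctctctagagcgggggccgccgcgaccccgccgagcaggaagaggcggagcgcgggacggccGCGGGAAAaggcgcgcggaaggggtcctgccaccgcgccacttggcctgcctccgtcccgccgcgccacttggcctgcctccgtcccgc
ALB: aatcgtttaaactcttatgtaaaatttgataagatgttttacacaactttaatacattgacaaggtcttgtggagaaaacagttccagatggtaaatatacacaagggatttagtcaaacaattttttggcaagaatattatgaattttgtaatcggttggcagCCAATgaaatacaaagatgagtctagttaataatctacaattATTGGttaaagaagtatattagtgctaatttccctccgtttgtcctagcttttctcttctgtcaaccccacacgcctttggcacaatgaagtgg
TMSB10 has a GC content of 75.3% with 35 CpG and 5 matches of GGGCGG, of which a pair overlaps. CAV1 has 62.3% with 19 CpG, and ALB 33.3% with 4 CpG. None of the 3 holds the exact letters TATAAA in this window. Related forms, such as the tatataag in the window of TMSB10, were not searched.

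Genes above the floor had promoters richer in CpG. The median ratio of observed to expected CpG was 0.84 for the 10109 genes above the floor with a window and 0.39 for the 5272 at or below it. Median GC content was 65.3% and 57.0%. Among protein-coding genes the ratios were 0.84 and 0.43, and among protein-coding genes with 1 probe set 0.82 and 0.38, so the gap was as wide where the number of probe sets was equal. In the comparison lists of other tissues the ratio was 0.17. Genes are no replicates, and these are descriptions of 1 array.

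**Figure D3:**
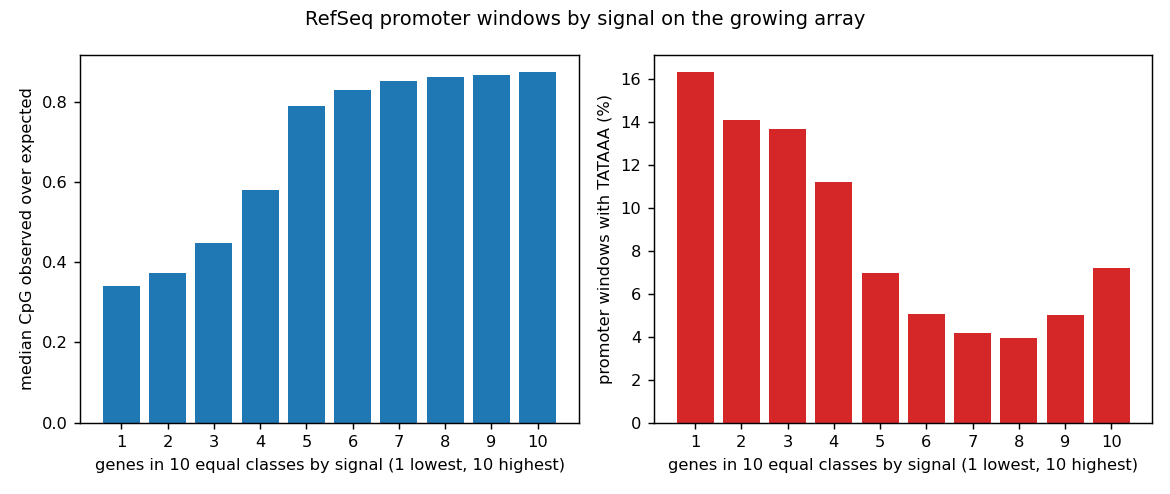
Genes with a promoter window in 10 equal classes by signal, from the lowest (1) to the highest (10). Left, the median ratio of observed to expected CpG, which goes from 0.34 to 0.87; right, the percentage of windows with TATAAA on either strand, which is 16.3% in class 1, 3.97% in class 8 and 7.21% in class 10.

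Motifs were searched on both strands and are matches of letters, not sites. TATAAA was in 11.5% of all 35116 RefSeq windows, in 5.87% of those of genes above the floor, in 14.3% at or below it and in 38.1% of the comparison lists. In the 500 highest genes it was 10.4%, so the share did not fall steadily towards the top of the order. GGGCGG, the GC box, was in 45.0% of all windows, 69.2% above and 39.1% at or below the floor. CCGGAAGT, a letter form of the ETS site, was in 4.14% of all, 8.74% above and 1.44% at or below, and in 10 of 50 ribosomal protein windows.

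The dividing-cell genes shared letters of their own. TTTGAA, the cell cycle homology region of mitotic promoters, was in 24 of 33 G2/M windows, 72.7%, against 15.2% of all windows and 10.0% of genes above the floor. TTTGAA and CCAAT occurred together in 20 of those 33, as in TOP2A, whose window above has 2 of the first and 4 of the second, and in 5.90% of all windows. In S phase windows TTTGAA was in 1 of 35. There TTTGGCGC or TTTCCCGC, letter forms of the E2F site, was in 16 of 35, 45.7%, against 2.27% of all windows and 3.68% of genes above the floor, and in 2 of 33 G2/M windows. Both lists were written from genes known for their cell cycle roles.

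Fibrillar collagens were above the floor in 10 of 11 cases. COL1A1, COL1A2 and COL3A1, the chains of types I and III, were at 33451, 27180 and 25414. The type V chains COL5A2 and COL5A1, which set the width of fibrils, were at 16857 and 4836, and COL5A3 at 237. COL11A1 was at 597 and COL27A1 at 585. The low members were COL11A2 at 92.9, COL24A1 at 47.3 and, under the floor, the cartilage chain COL2A1.

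Among basement membrane and network collagens 9 of 11 were above the floor. The ubiquitous pair COL4A1 and COL4A2 was at 15205 and 9459, whereas COL4A3 at 21 and COL4A4 at 32.9, chains of kidney and lung epithelial membranes, were under it. COL4A5 was at 2287 and COL4A6 at 608. COL8A1 was at 5279, COL15A1 at 4304 and COL18A1, the source of endostatin, at 758, and COL10A1 was at 49.8. Of the beaded, anchoring and fibril-associated collagens 9 of 19 were above it, led by COL6A3 at 24040, COL6A1 at 22947 and COL12A1 at 15101. COL13A1 was at 2980, and COL6A2, the third chain of the type VI trimer, at 2400. The next probe set of COL6A1 was at 557. COL6A5 at 13.7, COL6A6 at 16, COL9A1 at 5.8 and COL9A3 at 2.0 were under the floor.

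Enzymes that modify collagen were above the floor in 22 of 24 cases. PPIB, a cyclophilin of the endoplasmic reticulum, was at 20448, the crosslinking lysyl oxidase LOX at 16883, P4HB, a subunit of prolyl hydroxylase, at 13910 and the lysyl hydroxylase PLOD2 at 12331. PCOLCE2 was at 1.0 and ADAMTS14 at 44.4, while their relatives PCOLCE and ADAMTS2 were at 3153 and 785. Elastic fibre genes were above it in 15 of 18 cases, with LTBP1 at 11912, FBN1, fibrillin-1, at 9818, FBN2 at 5060 and EFEMP2, fibulin-4, at 4904. ELN, which encodes elastin itself, was under the floor at 31.6 with its other probe set at 12.6. EMILIN2 was at 35.1.

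Matricellular proteins were above the floor in 14 of 21 cases. FN1, TGFBI at 23516, THBS1 at 20696 and SPARC at 19266 led it. CCN1 was at 15567, CCN2 at 14339 and POSTN, periostin, at 11197. SPARCL1 at 29.3, TNXB at 10.0, TNR at 30.6 and TNN at 8.0 were under the floor. Proteoglycans were above it in 17 of 26 cases, with DCN, decorin, at 20075, LUM, lumican, at 13729, VCAN, versican, at 5545 and SDC4, a syndecan, at 4826. KERA of the cornea was at 12.7, OGN at 25.3, OMD at 6.9 and ASPN at 28.8.

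Laminins and nidogens were above the floor in 9 of 12 cases. NID2 was at 10211, LAMC1 at 9382, LAMB1 at 6952 and NID1 at 3754, and the alpha chain with the highest signal was LAMA4 at 1810. LAMB3, a chain of epithelial laminin, was at 31.8, LAMB4 at 25.5 and LAMC3 at 40.0. Of 21 matrix metalloproteinases 10 were above it. MMP1, the interstitial collagenase, was at 17604 from its only probe set, MMP2, a gelatinase, at 4869, the membrane-bound MMP14 at 2044 and the stromelysin MMP3 at 1417. MMP7 at 30.7, MMP8 at 3.2, MMP12 at 34.5 and MMP13 at 1.0, enzymes of epithelium, neutrophils, macrophages and cartilage, were under it.

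All 8 readable protease inhibitors of the matrix were above both marks. TIMP1 was at 23063, TIMP2 at 14932 and TIMP3 at 4769, while TIMP4 was at 92.8. SERPINE2, protease nexin-1, was at 9930 and RECK, a membrane-anchored inhibitor, at 5498.

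**Figure D4:**
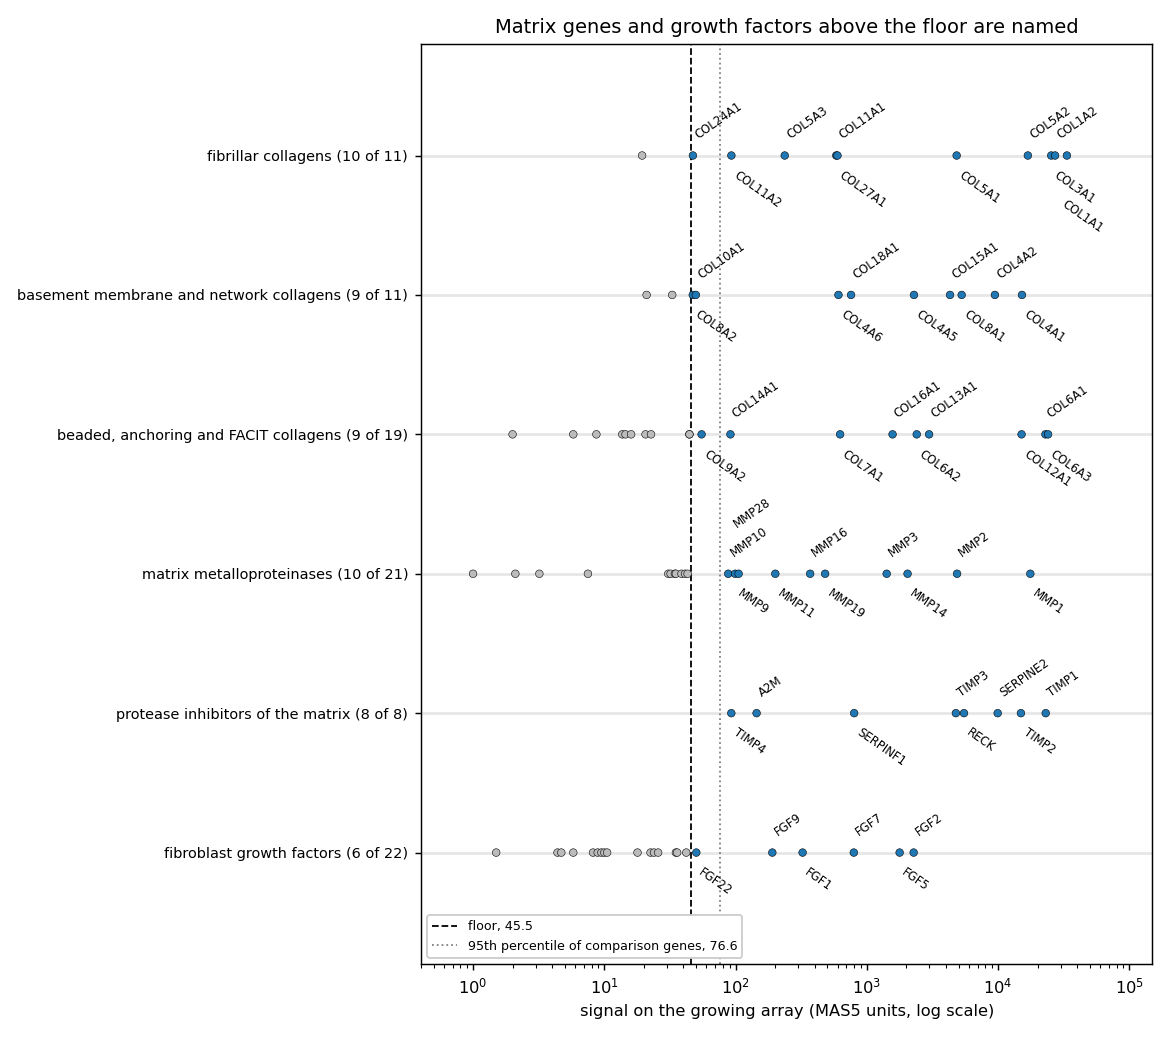
Collagens by class, matrix metalloproteinases, protease inhibitors and fibroblast growth factors, 1 point a gene on a log axis of signal in MAS5 units, with genes above the floor of 45.5 named and genes at or below it grey. COL1A1 lies at the right edge at 33451 and COL2A1 of the same class at 19.4.

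In the cytoskeleton, each family had nonmuscle or shared isoforms high in the order. Of 6 listed actins 5 could be read. ACTB was at 26012 with 3 probe sets from 25002 upwards, ACTG2 and ACTA2 have been given above, ACTC1 of the heart was at 64.1 and ACTA1 of skeletal muscle at 14.7. The tropomyosins TPM2, TPM1 and TPM4, the 3 of 4 listed that could be read, were at 25738, 24584 and 5648. Of myosin heavy chains 4 of 13 were above the floor, the nonmuscle MYH10 at 5512, MYH9 at 3178 and MYH14 at 103, and MYH11. The skeletal and cardiac chains MYH1 at 3.8, MYH2 at 13.9, MYH3 at 20.9 and MYH4 at 4.7 were under it.

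Myosin light chains were above the floor in 9 of 12 cases. MYL6 was at 26181, MYL12B at 21159, MYL12A at 14708, MYL6B at 3861, and MYL9 at 3227, all of nonmuscle or smooth muscle myosin. MYL5 at 292, MYL4 at 256, MYL10 at 101 and the cardiac MYL3 at 73.4 were also above the floor, while MYL1, MYL2 and MYL7 of striated muscle were at 4.5, 4.8 and 4.7. Only 4 of the 7 listed alpha-actinins and filamins could be read. ACTN1, the nonmuscle alpha-actinin, was at 21846 and ACTN4 at 1023, while the muscle forms ACTN3 and ACTN2 were at 54.4 and 21.6. Small actin regulators were all above the floor, 8 of 8. After the thymosins came DSTN, destrin, at 22851, CFL1, cofilin, at 19189, PFN1, profilin, at 13974, PFN2 at 10657 and CFL2 at 8663, and PFN4 of the testis was at 60.

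Tubulins were above both marks in 10 of 13 cases. TUBA1B, TUBA1A, TUBB and TUBA1C were at 31185, 28412, 24492 and 22046, and TUBB6 at 16623, TUBB2A at 15580, TUBB4B at 14875 and TUBB3 followed. Their order should not be read closely, because alpha-tubulin genes are near-identical and x_at probe sets were among those used. TUBA8 at 2.3, TUBB1 of platelets at 25.6 and TUBB4A of the nervous system at 14.4 were under the floor. Intermediate filaments were above it in 16 of 28 cases, led by VIM, KRT10 at 7807, LMNA at 6722 and LMNB1, with NES, nestin, at 2948. KRT18 was at 2987 and its usual partner KRT8 at 106. GFAP, NEFL at 29.5, NEFM at 44.8 and KRT1 at 3.6 were under it.

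All 7 caveolins and cavins were above the floor. CAV1 at 31793 and CAV2 at 20473 were followed by the coat proteins CAVIN1 at 7626, CAVIN3 at 4993 and CAVIN2 at 1888. The muscle forms CAVIN4 at 229, above 76.6, and CAV3 at 67.9, under it, came last. Annexins, which bind membranes through calcium, were above it in 9 of 11 cases: ANXA2 at 21465, ANXA5 at 20206, ANXA1 at 18367, ANXA7 at 6657, ANXA11 at 6392, ANXA6 at 4716, ANXA4 at 3218, ANXA3 at 1036 and ANXA10 at 108. ANXA9 at 45.4 lay just outside the floor and ANXA13 was at 30.

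S100 proteins divided sharply, with 8 of 19 above both marks. S100A6 was at 24146, S100A10, the partner of ANXA2, at 17286, S100A11 at 9520 and S100A13 at 7491. S100A1 of muscle was at 40.2, S100A7 of skin at 1.9, S100A8 of myeloid cells at 31.7 and S100A5 at 7.9. Galectins were above the floor in 5 of 9 cases, LGALS1 at 20446, LGALS3 at 15414, LGALS8 at 1394, LGALS9 at 57.6 and LGALS4 at 46.4. LGALS13 at 19.1, LGALS12 at 17.0, LGALS14 at 16.8 and LGALS2 at 4.5 were under it.

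At the surface, integrin subunits were above the floor in 20 of 25 cases. ITGB1, the common beta subunit, was at 26184 with a second probe set at 22738, although 4 of its 7 were at or below the floor. ITGAV was at 11141, ITGA2, a collagen-binding subunit, at 9047 and ITGAE at 6011 from its only probe set. The 5 subunits under it included ITGA2B at 6.0, ITGAD at 25, ITGB2 at 18.5 and ITGB4 at 30.7, while the leukocyte subunits ITGAL at 68.6 and ITGAM at 48.2 were just above it. Classical cadherins were above it in 5 of 17 cases. The mesenchymal CDH11 was at 6822, CDH2, the neural cadherin, at 4944 and CDH6 at 2433, then CDH22 at 87.6, whereas CDH1, CDH3 at 2.1 and CDH7 at 12.4 were under it.

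Of gap junction proteins 4 of 12 were above the floor. GJA1, a widely used connexin, was at 15938, GJC1 at 3906, GJA3 at 300.5 and GJD3 at 131, and GJA4 at 16.4, GJA5 at 7.1, GJA10 at 22.3 and GJB1 of liver at 4.6 were under it. Receptor tyrosine kinases were above it in 22 of 32 cases, with AXL at 10218, PDGFRA, the collagen receptor DDR2 at 4693, EGFR at 3733, MET at 2146 and FGFR1 at 1820. FGFR3 at 83.4, FGFR2 at 51.7 and FGFR4 at 48.3 lay near the floor. ERBB4 at 29.5, MST1R at 6.8, MERTK at 35.9 and NTRK2 at 41.9 were under it.

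TGF-beta family receptors were above both marks in 11 of 13 cases. TGFBR2 was at 7364, BMPR2 at 4326, TGFBR1 at 4058 and ACVR1 at 3766, and ACVR1C and AMHR2, the receptor of the Mullerian hormone, were at 21 and 3.6. Glucose transporters were above both marks in 10 of 12 cases. SLC2A10 was at 3723, SLC2A1, the widely used transporter, at 1726, SLC2A3 at 1383 and SLC2A13 at 954. SLC2A2 of liver was at 0.8 and SLC2A4, the insulin-responsive form of muscle and fat, at 2.8.

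**Figure D5:**
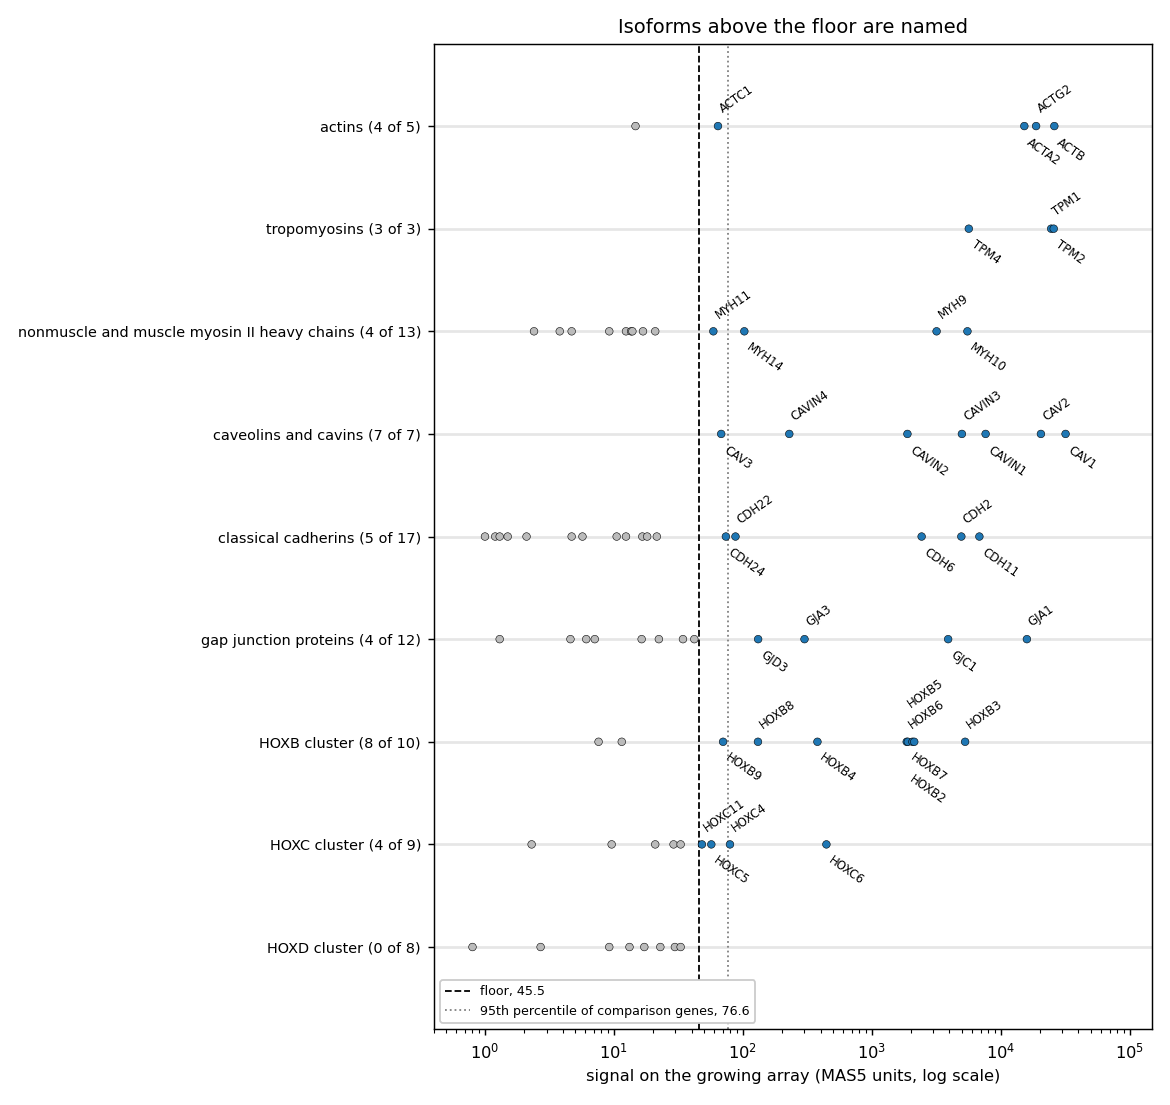
Paralogs by family, 1 point a gene on a log axis of signal in MAS5 units, with genes above the floor of 45.5 named and genes at or below it grey. Most families have members on both sides of the mark: ACTB at 26012 and ACTA1 at 14.7, GJA1 at 15938 and GJB1 at 4.6, and no HOXD gene above the floor.

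Secreted factors of the growing culture were led by binding proteins and antagonists. Of 9 readable IGF genes 6 were above both marks, IGFBP7 at 25388, IGFBP5 at 23551, IGFBP3, IGFBP6 at 2963, IGFBP4 at 1721 and IGFBP2 at 142. The ligand IGF1 was under the floor at 23.8 with all 5 probe sets, as were IGFBP1 at 23.5 and IGFALS at 31.5. In the TGF-beta and BMP list 17 of 22 were above the floor. GREM1, gremlin, a BMP antagonist, was at 25770 with a second probe set at 24121, FSTL1 at 19171, FST, follistatin, at 10134 and INHBA, the activin A subunit, at 9809. TGFB2 was at 1039 and TGFB1 at 330 with its other probe set at 22.9, and TGFB3 at 38.9, INHBB at 7.7, BMP3 at 3.4 and BMP5 at 19 were under it.

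WNT ligands and antagonists were above the floor in 13 of 27 cases. DKK3 was at 23183, WNT5A, a noncanonical ligand, at 14912 with a second probe set at 14596, SFRP1 at 14402, DKK1 at 4462 and WNT5B at 2175. WNT1 at 3.6, WNT2B at 20.8, WNT4 at 6.1 and WNT8A at 30.3 were under it, and so was SFRP2 at 19.2. Fibroblast growth factors were above it in 6 of 22 cases: FGF2 at 2274, FGF5 at 1778, FGF7, which acts on epithelium, at 796 from 1 of 3 probe sets, FGF1 at 324, FGF9 at 190 and FGF22 at 50.2. FGF10, the mesenchymal ligand of lung branching, was at 4.4, and FGF3 at 1.5, FGF4 at 23.9, FGF6 at 35.9 and FGF8 at 4.7 were also under it.

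Other growth factors were above the floor in 18 of 21 cases. PDGFC was at 12413, PTN, pleiotrophin, at 7658, HGF, hepatocyte growth factor, at 6989 with all 5 probe sets above the floor, BDNF at 6751, VEGFC at 3314 and VEGFA at 2507. ANGPT2 at 17.1, TGFA at 30.5 and BTC at 7.4 were under it. Cytokines and chemokines were above it in 18 of 40 cases, and none ranked among the 1000 highest. KITLG, stem cell factor, was at 3173, CCL2 at 2661, CXCL8, TSLP at 1636, IL11 at 1142, IL15 at 878, LIF at 842 and IL6 at 753. IL33 at 0.6, IL7 at 25.2, IL10 at 3.8 and IL2 at 4.1 were under it.

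Glycolysis genes were above the floor in 19 of 25 cases. GAPDH was at 23755, LDHA at 22955, LDHB at 19653, ENO1 at 19434, PGK1 at 15746 and ALDOA at 12886. PFKP was at 5773, PFKM at 2192 and PFKL at 276, and HK1 at 3535 and HK2 at 1199. HK3 at 5.1, HKDC1 at 33.7, GAPDHS of sperm at 2.8 and PGK2 of testis at 38.4 were under it, and LDHC of testis was above it at 73.8. PKM was at 1549 with its other probe set at 86.1.

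In the respiratory chain, CYCS, cytochrome c, was at 16225, ATP5MC3 at 15607, COX7A2 at 15455 and COX4I1 at 14249, and 13 of 16 genes of the list were above the floor. The muscle form COX7A1 was at 880, COX4I2 at 114 and COX6A2 at 58.1, while the testis forms COX6B2, COX7B2 and COX8C were at 2.9, 3.5 and 22.4. Of the ADP/ATP carriers and creatine kinases 5 of 9 were above it, SLC25A5 at 14229, SLC25A4 at 1322, UCP2 at 474, CKB at 362 and UCP3 at 49.1. CKMT2 at 9.6, CKM at 5.4, UCP1 of brown fat at 3.8 and SLC25A31 of testis at 1.0 were under it. Ion pumps were above both marks in 5 of 10 cases, ATP1B3 at 14621, ATP2B4 at 5668, ATP1B1 at 4231, ATP2A2 at 4068 and ATP2B1 at 3787, with ATP1B2 at 4.6, ATP2A1 at 20.7, ATP2A3 at 9.1 and ATP2B2 at 12.5 under the floor.

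Antioxidant genes were above the floor in 29 of 31 cases. FTL and MT2A were followed by TXN, thioredoxin, at 26873, MT1X at 22979 and PRDX1 at 21902, and SOD1 was at 16172 and NQO1 at 15100. SOD2 was at 759 and SOD3, the secreted form, at 48.7. GPX2 of the gut was at 11.8 and ALDH1A1 at 1.7, whereas ALDH1A3 was at 376.

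Genes of protein synthesis and turnover were above the floor nearly throughout. In the list of translation factors and associated proteins 9 of 10 were. There NACA at 24297 and EIF4G2 at 22974 came after EEF1A1 and TPT1, and EEF1A2, the form of neurons and muscle, was at 84.1. Proteasome subunits were above it in 16 of 17 cases, led by PSMB1 at 15654, PSMA1 at 14083, PSMB4 at 13713 and PSMA4 at 12378, and PSMA8 of testis was at 2.7. The immunoproteasome subunits PSMB10, PSMB8 and PSMB9 were at 1258, 1198 and 768. All 17 cytosolic aminoacyl-tRNA synthetases were above it, from KARS1 at 15966, IARS1 at 15344, GARS1 at 13840 and NARS1 at 12865 down to VARS1 at 449.7. Chaperones were above it in 21 of 24 cases, with PPIA at 25607, HSP90AA1 at 25406 and HSPD1 at 21362, and HSPA6, a strictly inducible form, at 32.2, HSPB2 at 6.6 and HSPB7 at 23.4.

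HOX genes are described by cluster. In the HOXB cluster on chromosome 17, 8 of 10 were above the floor: HOXB3 at 5289, HOXB2 at 2132, HOXB5 at 2065, HOXB7 at 1902, HOXB6 at 1864, HOXB4 at 378, HOXB8 at 131 and HOXB9 at 70.2. The ends of the cluster, HOXB1 at 11.5 and HOXB13 at 7.6, were under it. In the HOXC cluster on chromosome 12 the highest was HOXC6 at 444, then HOXC4 at 79.4, HOXC5 at 56.9 and HOXC11 at 48.1, with HOXC9 at 32.9, HOXC8 at 29.0, HOXC10 at 20.9, HOXC12 at 9.6 and HOXC13 at 2.3 under it. None of 8 readable HOXD genes, on chromosome 2, was above it: HOXD4 at 32.9, HOXD13 at 29.7, HOXD9 at 22.9, HOXD8 at 17.2, HOXD1 at 13.2, HOXD10 at 9.2, HOXD11 at 2.7 and HOXD12 at 0.8. Of the HOXA cluster only HOXA2, at 112, had a probe set naming it alone, and the other 10 were not analysed here. These counts moved with the settings. Without s_at and x_at sets, 3 HOXB and 3 HOXC genes were above the floor. Genes with no other kind of probe set are not read there, so those counts do not show a lower signal. At a floor of 88.8, the 60th percentile, 1 HOXC gene was above it, and at 11.7, the 25th percentile, 7 HOXC and 5 HOXD genes were.

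Mesenchymal and signal-driven transcription factors were above the floor in 32 of 39 cases. ATF4, the stress factor, was at 13810, YAP1, a sensor of tension, at 11270, ZEB1 at 11225, TEAD1, a DNA-binding partner of YAP1, at 9698 and JUN at 7762. MYC was at 1417 and EGR1, an immediate early gene, at 2558. SNAI1 at 41.0, SNAI3 at 2.3, FOS at 13.1 and FOSB at 5.8 were under it, while their relatives SNAI2 and FOSL2, the latter at 1141, were above. Long noncoding RNAs of the list were above it in 14 of 18 cases. NORAD was at 17162, MALAT1 at 7092 with 12 of 12 probe sets above the floor, ZFAS1 at 7026 and TUG1 at 3786, and HOTAIR of posterior and distal tissues was at 11.2. These were well-known genes. Of all 2657 long noncoding RNA genes on the array 24.5% were above the floor, against 69.6% of 16520 protein-coding genes.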

How the data were processed

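RNA of 3 cultures was measured on 1 array each, and the growing array is described. Per the labels' protocols, cRNA was prepared from 250 ng of total RNA. Each deposited value is the intensity of 1 probe set on a linear scale. MAS5 is the program in the submitters' processing notes, and its version and scaling target were not found there. The 2% trimmed mean of the growing array was 497. No detection calls were used.

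Platform annotation named 1 gene for 41091 of 54613 probe sets, several for 1801 and none for 11721. Of the first, 41037 matched RefSeq by gene identifier. Genes were ranked by their brightest probe set. The members and 76 gene lists were chosen with earlier results of these data known. Named were the first 30 genes, all members of short family, cycle, metabolism and HOX lists, and in other lists the 4 highest and up to 4 below the floor, with further members chosen after their values were seen. Alternatives were other floors, the median of a gene's probe sets, leaving out s_at and x_at sets, quantile normalization and the probe set highest over 3 arrays. The code that takes the brightest probe set was run on simulated data without noise. There it returns the true level by construction, so the run checks the code and not the ranking on this array. Protein features were not analysed here. With 1 array there is no test, and precision is limited by the number of arrays. Python 3.11.15, numpy 2.4.6, pandas 2.3.3 and matplotlib 3.10.9 were used.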

Additional observations from a re-analysis of the deposited data

Results flagged for a closer look

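Signal was also present in probe sets that name no single gene, which the comparisons above leave out. Of 11721 probe sets with no gene named, 1961 (16.7%) were above 76.6, the 95th percentile of the comparison genes, and the highest reached 31106. Of 1801 probe sets naming several genes, 967 (53.7%) were above it, and 113 were at 10000 units or more.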

How the results depend on the processing

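The number of genes above the floor was 12375 at 45.5 and lay between 9599 and 16422 under 7 alternatives, but 7894 were above a floor of 354, the 75th percentile. The 9599 came without s_at and x_at sets, where 17098 genes remained and 56.1% of them were above the floor. The share of a list exceeded that of all genes in 44 of 76 lists, and in 40 to 44 under the alternatives. Of the first 100 genes, 58 were shared when the median of a gene's probe sets was used and 31 without s_at and x_at sets, of which 74.0% of the first 100 consist, while quantile normalization and the probe set highest over 3 arrays kept 100. The count above the floor moved by over 1.5 times in 35 of 76 lists at the 75th percentile, 26 at the 25th, 18 at the 60th, 19 without s_at and x_at sets, 15 at 76.6 and 7 with the median of probe sets. Without s_at and x_at sets, 25 ribosomal genes were above the floor instead of 56. Genes with no other kind of probe set are not read in that setting. Its counts therefore mix genes that were lost with genes that were dim. At 76.6, lung epithelial markers went from 5 to 2, endothelial from 5 to 3, blood from 7 to 4 and general epithelial from 6 to 3. The 40 mitosis and 37 S phase genes were above that floor as well. No paired analysis was possible because each group has 1 sample. Signal over background limits all values near the floor, where comparison genes of other tissues also lay.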
